A study of Mus musculus with 12 samples.

Results

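The proteasome is the cell's main protease for proteins tagged with ubiquitin. A core particle of stacked alpha and beta rings does the cutting, and a regulatory particle of ATPase and non-ATPase subunits recognises, unfolds and feeds in the tagged protein. Interferon-gamma induces the immunoproteasome, in which Psmb8, Psmb9 and Psmb10 take the places of the constitutive catalytic subunits Psmb5, Psmb6 and Psmb7, and the core can be capped by the activator built of Psme1 and Psme2. In the brain the immunoproteasome genes are known for low levels in healthy tissue and for induction in reactive glia and invading immune cells.

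Genes were taken as proteasome genes when a probe set of the array was annotated to a single symbol starting with Psma, Psmb, Psmc, Psmd, Psme, Psmf or Psmg followed by a number. This gave 49 genes with 103 probe sets, out of 18193 genes with such a probe set on the array, and each gene was represented by its brightest probe set. Of the 49, 46 genes passed the filter on dim probe sets and were tested, among 12458 genes tested in all. The immunoproteasome genes were Psmb8, Psmb9, Psmb10 and Psme1, and 42 other genes were tested beside them. Psme2 has no probe set of its own here, because the probe set 1417189_at is annotated to both Psme2b and Psme2, and its values are given without being assigned to either. Psma8, an alpha subunit of the testis, Psmb11, a beta subunit of the thymus, and Psmc3ip, a recombination factor, were too dim to be tested. Psmc3ip and Psme3ip1, a binding partner of Psme3, carry a matching name but are not proteasome subunits.

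The samples were astrocytes cut by laser capture microdissection from the lumbar spinal cord of male mice. SOD1G93A mice carry a human SOD1 gene with the G93A mutation of familial amyotrophic lateral sclerosis (ALS), expressed in all cell types and not in astrocytes alone, on the C57Bl/6 J Ola/Hsd background after backcrossing, and their non-transgenic (NTg) littermates served as controls. There were 4 groups of 3 mice, SOD1G93A and NTg at 90 days, the symptomatic stage, and SOD1G93A and NTg at 120 days, the late stage. At least 1500 astrocytes were collected per animal, the RNA of each animal was amplified in 2 rounds, and each animal had 1 array. The labels give toluidine blue staining for the sections, whereas the study's methods describe picking cells stained for ALDH1L1. Levels are given as log2(intensity + 7) after quantile normalization within each age, so that 1 unit is a doubling.

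All 10 astrocyte markers examined were above the filter, and at 120 days 3 of the 10, Aldh1l1, Gfap and Sox9, were higher in SOD1G93A samples and 0 were lower (limma, adjusted p under 0.05). Of all 10, 7 had positive and 3 negative estimates at that age, the lowest being S100b at -0.60 (adjusted p = 0.0999, limma), with every SOD1G93A sample below every NTg sample. The signals of the 10 astrocyte markers summed to 32430 to 38820 in SOD1G93A samples against 27670 to 35250 in NTg samples at 90 days. At 120 days they summed to 19180 to 29260 against 16930 to 20710, and the ranges overlapped at both ages. The captures were not pure. The signals of 11 microglial markers summed to 6463 to 10480 in SOD1G93A samples against 2437 to 4608 in NTg samples at 90 days, and to 8655 to 10260 against 1540 to 1724 at 120 days, with 3 and 8 of the 10 tested markers higher in SOD1G93A at the 2 ages and Itgam too dim to be tested. Over all probe sets, 0.115% were called higher at 90 days and 3.6% at 120 days. The signals of 10 neuronal markers summed to 17900 to 22400 in SOD1G93A samples against 24150 to 28790 in NTg samples at 90 days, and to 9144 to 14950 against 20180 to 26670 at 120 days. Those of 7 oligodendrocyte markers summed to 35590 to 61850 in SOD1G93A against 30350 to 54920 in NTg samples at 90 days. At 120 days they summed to 39070 to 50430 against 25200 to 31530, and 0 of the 7 were called at either age. Of the lymphocyte markers with a probe set, 1 of 8 passed the filter. Array medians ran between 24.9 and 55.2 intensity units, and SOD1G93A replicate 3 at 120 days had the lowest mean correlation with its group, 0.862.

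No proteasome gene differed between SOD1G93A and NTg samples at either age after adjustment over all 26132 probe sets tested (limma, Benjamini-Hochberg adjusted p under 0.05). At 90 days this was 0 of 46 genes, where 0.138% of all probe sets were called (0.115% higher and 0.023% lower), and at 120 days 0 of 46 genes, where 7.45% were called (3.6% higher and 3.86% lower). The lowest adjusted p was 0.463 at 90 days, for Psme1, and 0.0822 at 120 days, for Psmg4. At an unadjusted p under 0.05 there were 2 genes higher, Psmb8 and Psme1, and 1 lower, Psmb4, at 90 days, where 5.61% of all probe sets passed (2.8% higher and 2.81% lower). At 120 days 4 genes were higher, Psmb6, Psmd3, Psmd4 and Psmg4, and 0 were lower, where 25.8% of all probe sets passed (10.7% higher and 15.1% lower). With a 2-fold change asked for as well, Psmb8 and Psme1 at 90 days (0.999% of all probe sets in the upward direction) and Psmg4 at 120 days (5.18%) were left. In a simulation of the 120 day comparison with 200 changed probe sets drawn, 3 of 64 tested with a true fold of 2 were called. Of those with a true fold of 4, 40 of 71 were called. With so few changed probe sets the adjusted threshold is stricter than in the data, where 1948 were called. The simulation therefore does not give the share of true changes that would be called here. A count of 0 with 3 mice a group does not show that no gene changed.

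The intervals give the precision under this normalization only and do not include shifts by other scaling. Under an alternative, Psme4 at 120 days reached -0.85, below its interval of -0.77 to 0.23. The 95% interval of the fold change lay wholly within a 2-fold change either way for 38 of 46 genes at 90 days, where 56.1% of all probe sets did so, and for 30 of 46 genes at 120 days, where 35.8% did so. None of the 4 immunoproteasome genes was among these at either age. The proteasome genes were brighter than most probe sets, with a median at the 91.9 percentile, and the part of brightness in these shares was not tested. The median log2 fold change of all 46 genes was -0.11 at 90 days and -0.01 at 120 days, beside medians of -0.002 and -0.07 over all probe sets tested. The samples are bulk captures, so that fewer cells of a type and less RNA per cell cannot be told apart in any of these values.

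**Figure D1:**
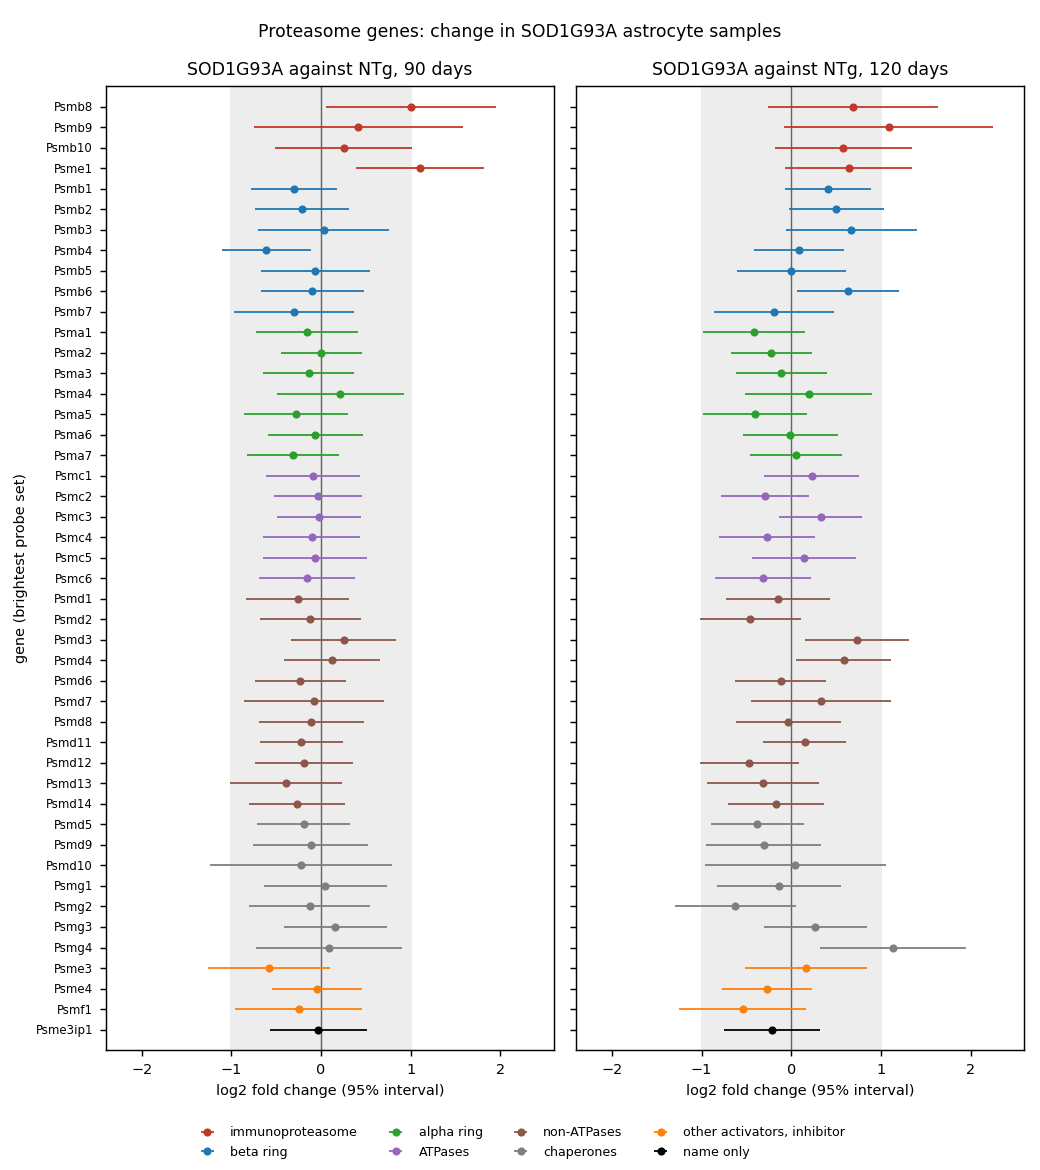
Log2 fold change of SOD1G93A over NTg samples for the 46 tested proteasome genes at 90 days (left) and 120 days (right), ordered by role; points are limma estimates, lines 95% intervals, and the grey band marks a change of less than 2-fold. The 4 immunoproteasome genes at the top lie to the right of 0 at both ages with wide intervals, and the intervals of most other genes stay inside the band.

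The 4 immunoproteasome genes had positive point estimates at both ages, with medians of 0.71 at 90 days and 0.66 at 120 days, whereas the 42 other genes had medians of -0.12 and -0.07. This is a description of 4 genes, of which 0 passed the adjusted threshold at either age. Positive estimates made up 49.7% of all probe sets at 90 days and 45.5% at 120 days. The direction was the same for all 4 genes at both ages with the values as deposited, with quantile normalization over all 12 arrays and with median centring. It did not hold under every alternative, since Psmb10 at 90 days turned to -0.10 without SOD1G93A replicate 2. With the filter at the 75th percentile Psmb10 alone was left. Psmb8 and Psmb9 passed the filter used here only with SOD1G93A arrays counted, so their positive estimates are not separate from that filter.

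Psmb8 encodes the chymotrypsin-like subunit of the immunoproteasome. Its level was 6.11, 7.12 and 5.75 in SOD1G93A samples against 5.59, 5.65 and 4.72 in NTg samples at 90 days. The groups did not overlap at 90 days, as for 5.74% of all probe sets in this direction, although the lowest SOD1G93A sample lay only just above the highest NTg sample. The log2 fold change was 1.01 (SE 0.44, 95% interval 0.06 to 1.95, adjusted p = 0.854, limma), and 0.61 without SOD1G93A replicate 2, the highest sample. At 120 days the levels were 5.10, 5.26 and 4.59 in SOD1G93A samples against 4.67, 4.85 and 3.38 in NTg samples. These groups overlapped, and the log2 fold change of 0.69 (SE 0.44, 95% interval -0.26 to 1.63, adjusted p = 0.346, limma) rested in part on the low NTg replicate 3, without which it was 0.23. In deposited units these 120 day values were 27.8, 35.5 and 27.2 in SOD1G93A samples against 17.6, 13.8 and 2.7 in NTg samples. Each lay below the median signal of its array, so that Psmb8 passed the filter through 90 day arrays alone. These were the 3 SOD1G93A arrays and NTg replicates 1 and 2, so that NTg arrays alone would not have carried Psmb8 past the filter. Its other probe set, 1444619_x_at, was too dim to be tested and averaged 4.11 in SOD1G93A against 4.41 in NTg samples at 120 days.

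Psmb9 encodes the immunoproteasome subunit that replaces Psmb6, and was the dimmest of the 4. At 90 days its level was 5.002, 5.34 and 5.61 in SOD1G93A samples against 5.08, 5.16 and 4.45 in NTg samples, and the groups overlapped, with a log2 fold change of 0.42 (SE 0.54, adjusted p = 1, limma) that ran between 0.20 and 0.58 with one 90 day array left out at a time. At 120 days its level was 5.90, 5.43 and 4.01 in SOD1G93A samples against 5.35, 3.22 and 3.51 in NTg samples. The groups overlapped again, since 1 animal of each genotype lay within the range of the other. The log2 fold change was 1.09 (SE 0.54, 95% interval -0.08 to 2.25, adjusted p = 0.227, limma). Single arrays moved it in both directions, to 0.68 without NTg replicate 2, 0.69 without SOD1G93A replicate 1 and 1.75 without NTg replicate 1. In deposited units these 120 day values were 52.5, 40.3 and 13.9 in SOD1G93A samples against 32.5, 1.2 and 3.5 in NTg samples, so that 2 of the 3 NTg values were below the offset of 7. At 90 days Psmb9 lay above the median signal of the array only in SOD1G93A replicates 2 and 3 and NTg replicate 2. At 120 days it did so only in SOD1G93A replicate 1. NTg arrays alone would thus not have carried Psmb9 past the filter, which asks for at least 3 arrays.

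Psmb10 encodes the trypsin-like subunit of the immunoproteasome and was the brightest of the 4. Its level at 90 days was 7.90, 8.59 and 7.17 in SOD1G93A samples against 7.53, 7.62 and 7.76 in NTg samples, and the SOD1G93A values lay on both sides of the tightly grouped NTg values. The log2 fold change was 0.25 (SE 0.35, adjusted p = 1, limma), and its sign turned to -0.10 without SOD1G93A replicate 2. At 120 days the level was 7.56, 6.69 and 7.47 in SOD1G93A samples against 6.36, 6.59 and 7.02 in NTg samples. The groups overlapped at one sample, with a log2 fold change of 0.58 (SE 0.35, 95% interval -0.18 to 1.34, adjusted p = 0.321, limma).

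Psme1 encodes the alpha subunit of the activator that caps the core particle and opens its gate. At 90 days its level was 7.25, 7.74 and 6.35 in SOD1G93A samples against 5.96, 6.45 and 5.62 in NTg samples, so that 2 of 3 SOD1G93A samples were above every NTg sample. The log2 fold change was 1.11 (SE 0.33, 95% interval 0.39 to 1.82, adjusted p = 0.463, limma), and ran between 0.79 and 1.48 with one 90 day array left out at a time. At 120 days the level was 6.61, 6.33 and 6.54 in SOD1G93A samples against 5.81, 5.83 and 5.92 in NTg samples. Here the groups did not overlap, as for 14% of all probe sets in this direction, and both were tight, with a log2 fold change of 0.64 (SE 0.33, 95% interval -0.07 to 1.35, adjusted p = 0.243, limma).

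The probe set 1417189_at, annotated to Psme2b and Psme2, is the nearest measure of the partner of Psme1. At 90 days it read 8.70, 9.14 and 8.20 in SOD1G93A samples against 8.52, 8.33 and 8.33 in NTg samples, which overlapped (log2 fold change 0.29, SE 0.27, adjusted p = 1, limma). At 120 days it read 7.69, 7.51 and 7.85 in SOD1G93A samples against 7.02, 6.84 and 6.49 in NTg samples. The 120 day groups were apart, with a log2 fold change of 0.90 (SE 0.27, 95% interval 0.32 to 1.48, adjusted p = 0.0597, limma). This narrowly missed the threshold, which was passed under 4 of 16 alternatives, with adjusted p between 0.0288 and 0.242 over all of them.

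**Figure D2:**
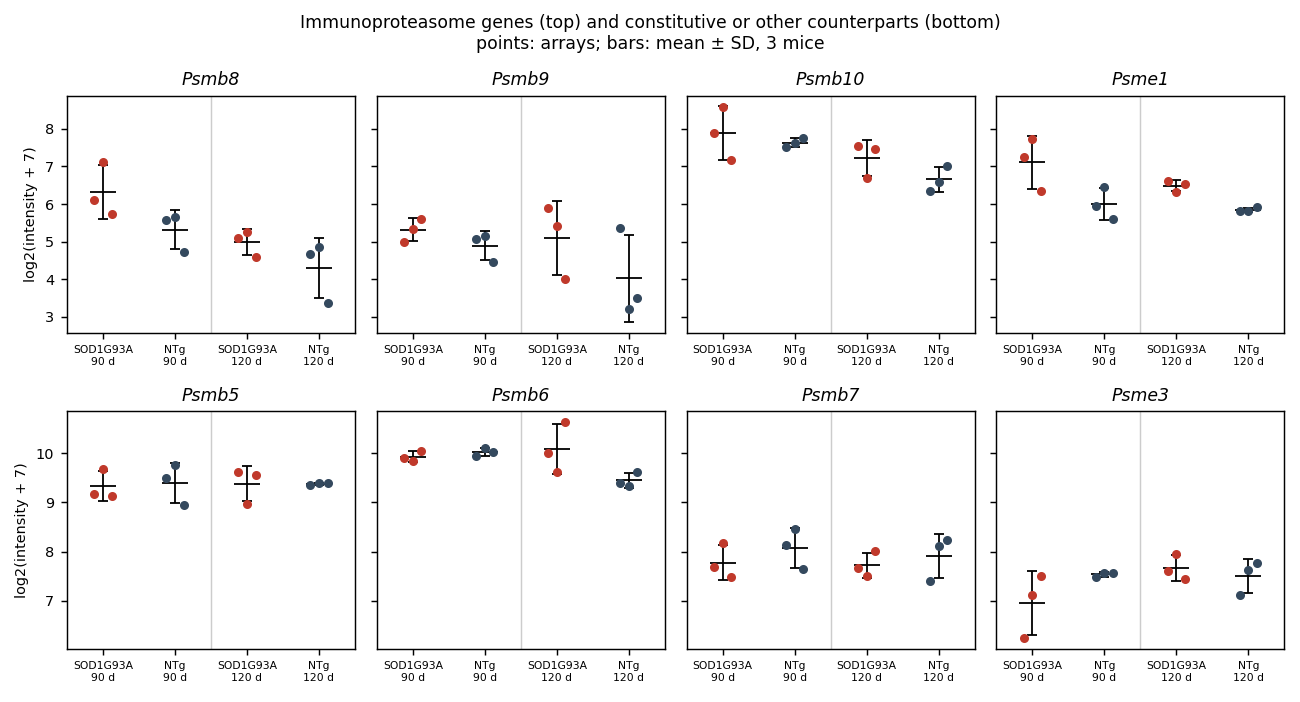
Level of each gene as log2(intensity + 7) by group, SOD1G93A and NTg at 90 days and then at 120 days, for the 4 immunoproteasome genes (top) and for Psmb5, Psmb6, Psmb7 and Psme3 (bottom); points are arrays and bars the mean ± SD of 3 mice. The SOD1G93A mean is above the NTg mean in all 4 top panels at both ages, while the points of most panels overlap.

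Averaged over genes and set to the NTg mean of the same age, the 4 immunoproteasome genes stood at 0.60, 1.23 and 0.25 in SOD1G93A samples against 0.07, 0.26 and -0.33 in NTg samples at 90 days. At 120 days they stood at 1.08, 0.72 and 0.44 in SOD1G93A samples against 0.34, -0.09 and -0.25 in NTg samples. At 120 days every SOD1G93A sample was above every NTg sample, and at 90 days the lowest SOD1G93A sample and the highest NTg sample were level. The 42 other genes averaged -0.17, -0.12 and -0.10 in SOD1G93A samples against -0.01, 0.11 and -0.10 in NTg samples at 90 days, and 0.16, -0.07 and -0.07 against -0.11, 0.07 and 0.04 at 120 days. At 90 days 2 of the 3 SOD1G93A samples lay below every NTg sample and the third was level with the lowest NTg sample, and at 120 days the genotypes overlapped. An average over 42 genes spreads less than one over 4 by its construction, so that the widths of these ranges are not compared. The immunoproteasome average minus that of the other genes was 0.77, 1.35 and 0.35 in SOD1G93A samples against 0.08, 0.14 and -0.23 in NTg samples at 90 days, and 0.93, 0.79 and 0.51 against 0.45, -0.16 and -0.29 at 120 days. On this within-array difference the genotypes did not overlap at either age. The summed microglial marker signal, given above, was also higher in every SOD1G93A sample than in every NTg sample of the same age, and its part in the immunoproteasome values was not tested.

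**Figure D3:**
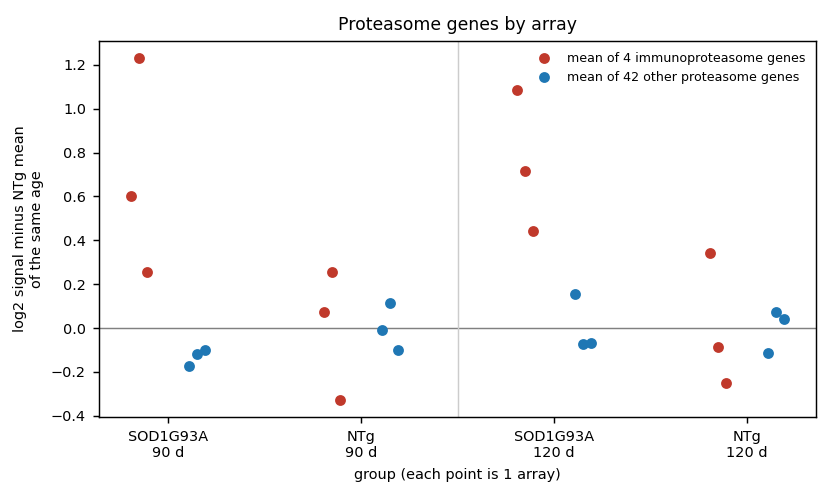
Mean log2 signal relative to the NTg mean of the same age for the 4 immunoproteasome genes (red) and the 42 other proteasome genes (blue), 1 point per array in each of the 4 groups. The red points of the SOD1G93A samples reach 1.23 at 90 days and 1.08 at 120 days, and those of the NTg samples lie between -0.33 and 0.34. The blue points of all 12 arrays lie between -0.17 and 0.16. A mean over 42 genes spreads less than one over 4 by its construction, so that the widths are not compared.

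The exchange of catalytic subunits was looked at as the difference of each pair within an array, Psmb8 minus Psmb5, Psmb9 minus Psmb6 and Psmb10 minus Psmb7, relative to the NTg mean of the same age. Psmb5, the constitutive chymotrypsin-like subunit, was at 9.18, 9.68 and 9.13 in SOD1G93A samples against 9.49, 9.75 and 8.94 in NTg samples at 90 days, and at 9.61, 8.96 and 9.56 against 9.36, 9.39 and 9.39 at 120 days. Its groups overlapped at both ages, and its log2 fold changes were -0.06 (95% interval -0.67 to 0.54) and -0.0008 (95% interval -0.61 to 0.61). Psmb8 minus Psmb5 was 1.01, 1.51 and 0.69 in SOD1G93A samples against 0.18, -0.02 and -0.15 in NTg samples at 90 days. This pair was apart at 90 days, with a difference of 1.07 (exact permutation p = 0.1, two-sided, adjusted p = 0.3 over 6 comparisons), where 0.1 is the smallest p that 3 against 3 animals allow. At 120 days the difference was 0.69 (exact permutation p = 0.4, adjusted p = 0.48) and the groups overlapped.

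Psmb6, the constitutive caspase-like subunit, was at 9.91, 9.84 and 10.05 in SOD1G93A samples against 9.94, 10.11 and 10.02 in NTg samples at 90 days, and at 10.00, 9.61 and 10.63 against 9.39, 9.33 and 9.61 at 120 days. At 120 days every SOD1G93A sample was above every NTg sample, the closest pair being almost level, with a log2 fold change of 0.63 (SE 0.27, adjusted p = 0.152, limma), so that numerator and denominator of this pair both had positive estimates. Psmb9 minus Psmb6 differed by 0.51 at 90 days (exact permutation p = 0.2, adjusted p = 0.3) and by 0.45 at 120 days (exact permutation p = 1, adjusted p = 1). Psmb7, the constitutive trypsin-like subunit, had log2 fold changes of -0.30 (SE 0.31) at 90 days and -0.19 (SE 0.31) at 120 days, with overlapping groups at both. Psmb10 minus Psmb7 was 1.15, 0.44 and 0.72 in SOD1G93A samples against 0.22, -0.26 and 0.04 in NTg samples at 120 days. The groups were apart there, with a difference of 0.77 (exact permutation p = 0.1, adjusted p = 0.3), and at 90 days the difference of 0.55 came with overlapping groups (exact permutation p = 0.2, adjusted p = 0.3).

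Across the 4 groups, on arrays normalized together, Psmb8 averaged 6.41 ± 0.66 in SOD1G93A and 5.49 ± 0.47 in NTg samples at 90 days, and 4.75 ± 0.37 in SOD1G93A and 4.09 ± 0.73 in NTg samples at 120 days (SD, n = 3 each). Neighbouring groups in this order overlapped, except SOD1G93A and NTg at 90 days. Psme1 averaged 7.14 ± 0.66 and 6.11 ± 0.39 in SOD1G93A and NTg samples at 90 days, and 6.42 ± 0.16 and 5.71 ± 0.06 at 120 days, so that its order was SOD1G93A at 90 days, SOD1G93A at 120 days, NTg at 90 days and NTg at 120 days. Psmb10 averaged 7.87 ± 0.67 and 7.62 ± 0.11 in SOD1G93A and NTg samples at 90 days, and 7.22 ± 0.51 and 6.59 ± 0.36 at 120 days. Psmb9 averaged 5.48 ± 0.27 and 5.11 ± 0.36 at 90 days, and 4.93 ± 1.02 and 3.88 ± 1.10 at 120 days, with SOD1G93A above NTg at each age. Neighbouring groups in the order of each of these genes, Psme1, Psmb10 and Psmb9, overlapped. All 4 genes thus had their lowest mean in NTg samples at 120 days. These levels were not tested between ages, because age and the processing of each age's set of arrays cannot be told apart. What was tested between ages was the difference of the SOD1G93A and NTg contrasts, each made within its own age.

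The immunoproteasome genes differed in brightness, and the part of brightness in the precision of their values was not tested. The SE of the log2 fold change at each age was 0.54 for Psmb9, 0.44 for Psmb8, 0.33 for Psme1 and 0.35 for Psmb10. The mean signal of Psmb9 lay at the 41.8 percentile of all probe sets, that of Psmb8 at 48.5, that of Psme1 at 68.7 and that of Psmb10 at 81.9, whereas the median over the 49 proteasome genes was 91.9. Percentiles describe how bright a probe set is, and cannot be read as amounts of mRNA, since probe sets differ in how strongly they bind.

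Psmb9 shares its promoter with Tap1, which encodes a subunit of the peptide transporter that carries proteasome products into the endoplasmic reticulum. On mouse chromosome 17 the genes run away from each other in opposite directions, and Psmb8 is the next protein-coding gene beyond Tap1. The 225 bases between the 2 transcription starts, at chr17:34187331-34187555 of RefSeq's GRCm38.p6, are shown on the strand of Psmb9 because one stretch faces both genes, with a GGGCGG match and a CCAAT match, which reads ATTGG on this strand, in capitals.
Psmb9 and Tap1: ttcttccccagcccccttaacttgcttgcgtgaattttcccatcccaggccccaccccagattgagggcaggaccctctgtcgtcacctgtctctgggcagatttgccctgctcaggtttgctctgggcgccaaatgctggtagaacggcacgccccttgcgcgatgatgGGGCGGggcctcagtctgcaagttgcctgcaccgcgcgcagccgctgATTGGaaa
GGGCGG occurs in 35.7% and CCAAT in 37.4% of all 32851 promoter windows of 300 bases in that set, on either strand. At 120 days Tap1 read 6.15, 5.76 and 5.85 in SOD1G93A samples against 3.76, 5.15 and 4.98 in NTg samples. Every SOD1G93A sample was higher, with a log2 fold change of 1.29 (SE 0.35, adjusted p = 0.0435, limma), beside 1.09 for Psmb9. The call was lost when any of the 6 arrays of 120 days was left out, with adjusted p between 0.0569 and 0.137, and it held under 6 of 16 alternatives in all. At 90 days the value for Tap1 was 0.67 (adjusted p = 0.964, limma).

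Promoter windows of 250 bases before and 50 after the start were on hand for 41 of the 49 genes. The letters TTCNNNGAA, which read the same on both strands and to which STAT factors of interferon signalling bind, were found in 1 of the 4 windows of immunoproteasome genes, in 2 of 40 windows of the other proteasome genes and in 8.3% of all windows. The 3 stretches are shown with up to 10 bases on each side, on the gene's own strand and with the matching letters in capitals, because they are all the matches among the members with a window.
Psmb8, chr17:34198088-34198116: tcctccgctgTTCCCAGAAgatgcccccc
Psmd2, chr16:20651646-20651674: gcgcgtggccTTCTGGGAAaaggggcggt
Psmg1, chr16:95991185-95991210: actcatgTTCTCTGAAtccgcttgca
The match lay before the start in Psmb8 and Psmg1 and after it in Psmd2. The letters TGACNNNGC, bound by Nrf factors, were in none of the 4 immunoproteasome windows on either strand, in 6 of 40 of the others and in 12.4% of all. Motifs were searched one by one, so matches of different motifs may overlap, and a match describes the letters only.

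The beta ring was the group of constitutive subunits with the highest median at 120 days. Of its 7 tested genes, 5 had positive estimates there, with a median log2 fold change of 0.41, whereas at 90 days 1 was positive and the median was -0.21. With median centring of the arrays the 120 day median turned to -0.12, beside a median of -0.33 over all probe sets, so that it was negative on that scale but still above the median of all. In 4 of the 7 genes every SOD1G93A sample was above every NTg sample at 120 days, where 14% of all probe sets showed this, and 0 of 7 passed the adjusted threshold. The difference between the 2 ages was positive for 7 of 7 genes, with a median of 0.69 beside -0.07 over all probe sets, most of which thus had a negative difference. The count of 7 did not hold under other scaling. Over the alternatives, Psmb5 and Psmb7 at 120 days reached -0.57 and -0.69. Their lowest values at 90 days were -0.28 and -0.52, so that their differences turned negative there. The 7 genes were read on the same arrays and are not separate observations. In the test of that difference 0 of 7 passed, where 0 of all 26132 probe sets passed (limma, adjusted p under 0.05). At an unadjusted p under 0.05 it was 1 of 7, and 9.24% of all probe sets. The genes named next were chosen after their values were seen.

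Psmb1, a beta subunit without catalytic activity, read 8.42, 8.63 and 8.51 in SOD1G93A samples against 8.82, 8.88 and 8.76 in NTg samples at 90 days. At 120 days it read 8.85, 8.30 and 8.495 in SOD1G93A samples against 8.16, 8.10 and 8.15 in NTg samples. Its samples were thus all lower in SOD1G93A at 90 days and all higher at 120 days, with log2 fold changes of -0.30 (SE 0.22) and 0.41 (SE 0.22). The difference of 0.71 (SE 0.31, adjusted p = 0.528, limma) had the lowest adjusted p of the 46 genes for this test. Of its other probe sets, 1420053_at had a log2 fold change of 0.50 at 120 days, with every SOD1G93A sample above every NTg sample, and 1420052_x_at one of 0.03.

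Psmb2 and Psmb3, also structural beta subunits, had log2 fold changes of 0.50 (SE 0.24) and 0.67 (SE 0.34) at 120 days. Psmb3 read 11.11, 10.84 and 11.61 in SOD1G93A samples against 10.17, 10.83 and 10.55 in NTg samples at that age, with the closest pair almost level. Psmb4 was the only gene lower at an unadjusted p under 0.05, at 90 days, where it read 10.84, 10.70 and 10.27 in SOD1G93A samples against 11.11, 11.29 and 11.24 in NTg samples. Every SOD1G93A sample was lower, as for 5.56% of all probe sets, with a log2 fold change of -0.61 (SE 0.23, adjusted p = 0.745, limma). Its other probe set, 1451205_at, gave 0.14 at 90 days, and the suffix of the brighter one, 1438984_x_at, marks probes that may also bind other transcripts.

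The alpha ring, which gates the entry to the core, had small estimates at both ages by the brightest probe set of each gene. Its 7 tested genes had log2 fold changes between -0.31 and 0.21 at 90 days and between -0.42 and 0.19 at 120 days, with medians of -0.14 and -0.11, and all 7 intervals lay within 2-fold at both ages. The 6 ATPases of the regulatory particle, Psmc1 to Psmc6, which unfold the substrate, had medians of -0.08 and -0.06. Their estimates ran between -0.16 and -0.02 at 90 days and between -0.32 and 0.33 at 120 days, and all 6 intervals again lay within 2-fold. With median centring the 120 day medians of both groups were lower, -0.53 for the alpha ring and -0.52 for the ATPases. Dimmer probe sets of 1 gene in each group were lower at 120 days at an unadjusted p under 0.05. Those of Psma6 were 1435317_x_at at -0.90 (adjusted p = 0.113) and 1435316_at at -0.76 (adjusted p = 0.189), against -0.01 by the brightest. That of Psmc6 was 1417770_s_at at -0.87 (adjusted p = 0.156; all limma), against -0.32 by the brightest.

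The 11 non-ATPase subunits, which bind and remove ubiquitin and hold the particle together, had medians of -0.19 at 90 days and -0.12 at 120 days. At 120 days they ran between -0.47 and 0.73, and 3 of 11 had all SOD1G93A samples above all NTg samples (14% of all probe sets) against 2 of 11 with all below (18.5%). The highest was Psmd3, a subunit of the lid, which read 8.99, 8.89 and 9.04 in SOD1G93A samples against 8.12, 8.34 and 8.25 in NTg samples. Both groups were tight and apart, with a log2 fold change of 0.73 (SE 0.27, 95% interval 0.15 to 1.32, adjusted p = 0.111, limma). Psmd4, a ubiquitin receptor, had a log2 fold change of 0.58 (SE 0.25, adjusted p = 0.158, limma) by its brightest probe set, whereas its probe sets 1425859_a_at and 1451725_a_at gave 0.22 and -0.08.

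Among the 7 tested assembly chaperones, which build the particle but are not part of it, the medians were -0.12 at 90 days and -0.14 at 120 days. Psmg4, a chaperone of the core particle, was the one member past a 2-fold change with an unadjusted p under 0.05 at 120 days. It read 6.001, 6.28 and 5.48 in SOD1G93A samples against 5.27, 5.14 and 3.94 in NTg samples. The groups were apart, with a log2 fold change of 1.14 (SE 0.38, 95% interval 0.32 to 1.95, adjusted p = 0.0822, limma). It passed the threshold with the values as deposited (1.51, adjusted p = 0.0216, limma) and with array weights (1.503, adjusted p = 0.0324, limma). Without the low NTg replicate 3 it was 0.70 (adjusted p = 0.293, limma), and the threshold was passed under 2 of 16 alternatives. At 90 days the value for Psmg4 was 0.09 (SE 0.38). Psmg2, its fellow core chaperone, had the lowest estimate of all 46 genes at 120 days, -0.62 (SE 0.31, adjusted p = 0.229, limma).

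The activators that do not belong to the immunoproteasome did not follow Psme1 in sign at 90 days. Psme3, which forms a nuclear activator, read 6.25, 7.12 and 7.50 in SOD1G93A samples against 7.48, 7.56 and 7.57 in NTg samples at 90 days, with the spread on the SOD1G93A side. Its log2 fold change was -0.58 (SE 0.32, adjusted p = 0.974, limma) at 90 days and 0.17 (SE 0.32) at 120 days, the second turning to -0.27 with median centring. Psme4, the single-chain activator of the nucleus, had log2 fold changes of -0.04 (SE 0.23) and -0.27 (SE 0.23). Its other tested probe sets did not share one direction, 1452211_at giving 0.01 and -0.47, 1445147_at 0.13 and 0.29, 1426824_at -0.51 and -0.21 and 1446464_at -0.24 and 0.10 at 90 and 120 days. Psmf1, an inhibitor of the core, had a log2 fold change of -0.54 at 120 days, with every SOD1G93A sample below every NTg sample, as for 18.5% of all probe sets. Its other tested probe sets overlapped at that age, with 0.22 for 1451337_at, -0.02 for 1424371_at and -0.32 for 1424369_at.

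**Figure D4:**
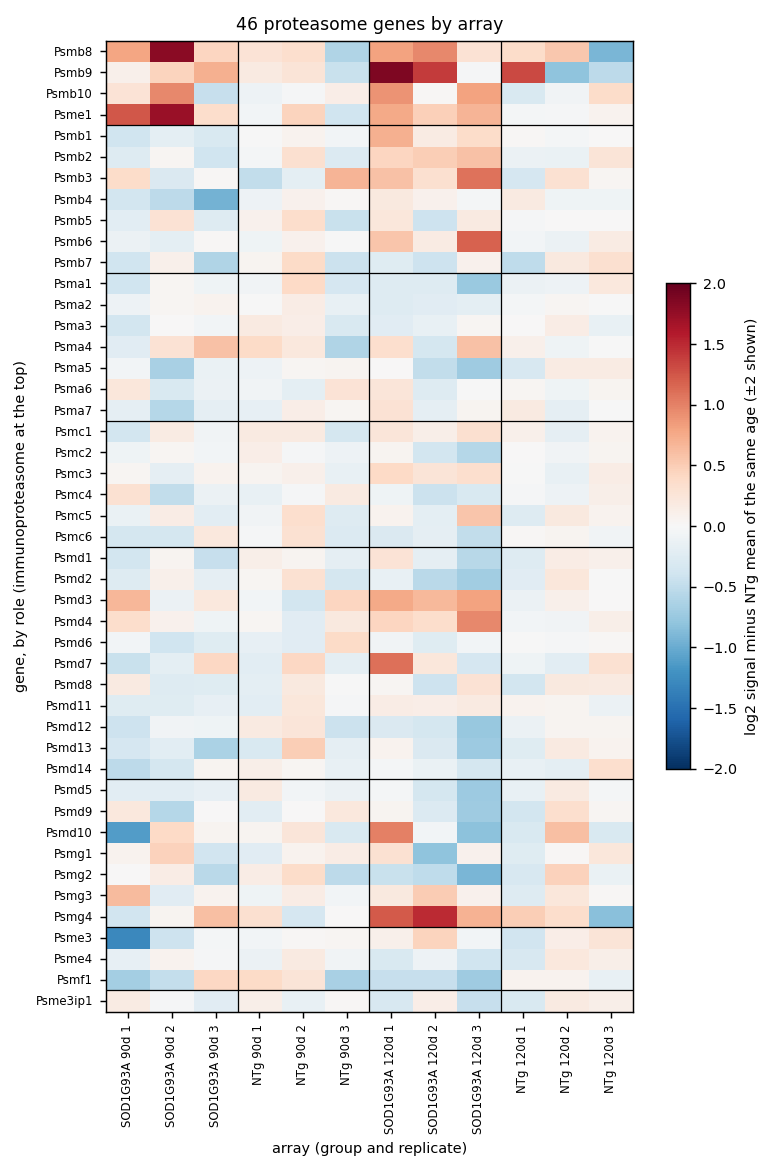
Log2 signal of each of the 46 tested genes (rows, by role) on each of the 12 arrays (columns, SOD1G93A and then NTg at 90 days and at 120 days), relative to the gene's NTg mean of the same age; red is higher and blue lower. The immunoproteasome rows at the top reach 1.80 in SOD1G93A columns at 90 days (Psmb8) and 1.87 at 120 days (Psmb9), but in SOD1G93A replicates 2 and 3 at 120 days the highest genes are Psmg4 (1.496) and Psmb6 (1.18).

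Over all 46 genes, 11 had every SOD1G93A sample above every NTg sample at 120 days, where 14% of all probe sets did, and 7 had every one below, where 18.5% did. At 90 days the counts were 1 and 4, where 5.74% and 5.56% of all probe sets were so. The neuronal marker signal was lower and the microglial signal higher in SOD1G93A samples at both ages, as given above. The summed oligodendrocyte signal was higher in every SOD1G93A sample at 120 days. The summed astrocyte signal had overlapping ranges at both ages. The part of these signals in the values was not tested.

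Genes that work with the proteasome but do not carry its names did not pass the threshold, although some did under alternatives. Of the 9 tested partners of the particle, 0 were called at either age, and the smallest p at 120 days belonged to Ube3c, a ubiquitin ligase bound to the proteasome (-0.74, adjusted p = 0.0643), and Sem1, a small subunit of the lid (0.78, adjusted p = 0.0697), followed by Ecpas (-0.94, adjusted p = 0.18) and the deubiquitinase Uchl5 (-0.58, adjusted p = 0.248; all limma). Of 17 alternatives at 120 days, Ube3c passed as lower under 6 (adjusted p between 0.0198 and 0.224 over all of them), Sem1 as higher under 2, and Ecpas and Uchl5 as lower under 1 each. Of the 8 genes that control proteasome gene expression, 0 were called at either age, and Nfe2l1, the transcription factor that raises the subunits together when the proteasome is blocked, stood at a log2 fold change of 0.52 (adjusted p = 0.295, limma) at 120 days. Mafk, a partner of Nfe2l1, stood at 0.97 (adjusted p = 0.113, limma) and passed under 2 of 17 alternatives. Ngly1, the enzyme that processes Nfe2l1, stood at -0.52 (adjusted p = 0.291, limma), and Keap1, which holds Nfe2l2 in check, by 0.52 (adjusted p = 0.238, limma).

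Of the 10 tested genes of ubiquitin, its activating enzymes and its shuttles, 0 were called, with a median of -0.36 at 120 days beside -0.07 over all probe sets. Uba6, a ubiquitin-activating enzyme, read 6.90, 6.79 and 5.81 in SOD1G93A samples against 7.38, 7.92 and 7.64 in NTg samples at 120 days. Every SOD1G93A sample was lower (-1.14, SE 0.33, adjusted p = 0.0543, limma). Ubqln2, a shuttle that brings ubiquitinated proteins to the proteasome and is mutated in some familial ALS, read 9.83, 9.76 and 8.95 in SOD1G93A samples against 10.38, 10.51 and 10.46 in NTg samples. It too was lower in every SOD1G93A sample (-0.94, SE 0.29, adjusted p = 0.0664, limma). Uba6 and Ubqln2 narrowly missed the threshold here and were past it with median centring, with the offset at the 50th percentile and with the stricter filter, which made 3 of 17 alternatives for Ubqln2, and Uba6 passed under 6 of 17.

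The peptide-loading genes downstream of the immunoproteasome had a median of 0.57 at 90 days and 0.56 at 120 days over 10 tested genes, of which 0 were called at 90 days and 1, Tap1, at 120 days (upward background 3.6%). B2m, the light chain of MHC class I, read 9.59, 9.62 and 8.49 in SOD1G93A samples against 8.45, 7.90 and 8.19 in NTg samples at 120 days. Every SOD1G93A sample was above, the lowest by little (1.06, SE 0.33, adjusted p = 0.0643, limma). B2m passed under 4 of 17 alternatives, with adjusted p between 0.00845 and 0.386 over all of them. Nlrc5, the activator of MHC class I genes, stood at 1.05 (adjusted p = 0.129, limma) and passed under 3 of 16 alternatives, and the chaperone Canx stood at -0.76 (adjusted p = 0.13, limma) and passed under 1 of 17.

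Of 12 tested genes of interferon signalling, 1 was called at 90 days (upward background 0.115%) and 2 at 120 days (upward background 3.6%), all higher. Irf8, a transcription factor of microglia and other myeloid cells, was called at both ages, with log2 fold changes of 2.23 (adjusted p = 0.0101, limma) and 2.84 (adjusted p = 0.000261, limma). At 120 days it read 8.51, 8.68 and 8.19 in SOD1G93A samples against 5.79, 5.17 and 5.89 in NTg samples, a wide gap. Its 90 day call was lost without SOD1G93A replicate 3 (adjusted p = 0.0733), without NTg replicate 2 (adjusted p = 0.0838) or with each age alone (adjusted p = 0.0635). Irf1, the interferon-induced factor that switches on Psmb8, Psmb9 and Psmb10, changed by 1.15 (SE 0.29, adjusted p = 0.0321, limma) at 120 days, and its value at 90 days was 0.32 (adjusted p = 1, limma).

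Irf1 read 7.44, 8.02 and 8.30 in SOD1G93A samples against 7.15, 6.89 and 6.27 in NTg samples at 120 days. The groups were apart, and the call was lost without SOD1G93A replicate 2 or 3 (adjusted p = 0.0614 and 0.0827) or NTg replicate 2 or 3 (adjusted p = 0.101 and 0.138). With median centring Irf1 was 0.74 (adjusted p = 0.0972, limma), and the call held under 9 of 17 alternatives. Jak1, a kinase of the interferon receptors, stood at -0.98 (adjusted p = 0.0581, limma) and passed as lower under 8 of 17 alternatives, with adjusted p between 0.0181 and 0.226 over all of them. Irf7 stood at 1.20 (adjusted p = 0.103, limma) and passed under 1 of 17. Of 9 tested interferon targets, 0 were called at 90 days and 2 at 120 days (upward background 3.6%). These were Ifi35 (1.41, adjusted p = 0.0266, limma) and Ifit3 (1.18, adjusted p = 0.0456, limma), both apart in all samples at 120 days. Gbp3 and Usp18 had log2 fold changes of 0.63 and 0.72 without being called. Ifi35 lost its call without SOD1G93A replicate 3 or any one NTg array (adjusted p between 0.0581 and 0.116), and Ifit3 without SOD1G93A replicate 2 or 3 or any one NTg array (adjusted p between 0.0546 and 0.163). With median centring Ifi35 was 0.89 (adjusted p = 0.0941, limma) and Ifit3 was 0.89 (adjusted p = 0.0962, limma), and the calls held under 11 and 7 of 17 alternatives.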

How the data were processed

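RNA of 12 laser-captured astrocyte samples was hybridised to Affymetrix mouse expression arrays, which read mRNA mainly near its 3′ end. The deposited intensity values were made by the authors with MAS5, per the labels, and scaled so that the mean of each array without its highest and lowest 2% is 100. The study's own comparison used PLIER values, which were not used here. Gene symbols came from the platform annotation of 2016, in which 34958 of 45101 probe sets have 1 symbol, 932 several and 9211 none.

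Values were taken as log2(intensity + 7) and quantile-normalized within each age. A probe set was kept where at least 3 arrays placed it in their brighter 50%, and the 64 controls were dropped. limma 3.58.1 (R 4.3.3) fitted 4 group means over 12 arrays, with 8 residual degrees of freedom, and p-values were adjusted by Benjamini-Hochberg over the 26132 probe sets tested. The script was tested on simulated data. Catalytic pairs were tested by exact permutation over animals. Replicates are separate mice. The number of arrays limits the precision.

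Named were the immunoproteasome genes and their counterparts, other members past the threshold or past a 2-fold change with an unadjusted p under 0.05, members not tested, and up to 4 genes of each outside list by smallest p at 120 days. Other members named were chosen after their values were seen. Members and lists were chosen with earlier results of these data known. Alternatives were other normalizations, offsets, filters, array weights, a replicate block, each age alone, the mean over probe sets and leaving out each array.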

Additional observations from a re-analysis of the deposited data

How the results depend on the processing

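The count of proteasome genes past the threshold was 0 at both ages and for the difference between ages under nearly all alternatives; the exception was 1 gene higher at 120 days, Psmg4, with the values as deposited and 1 with array weights. Scaling moved the 120 day values as a whole, since the median of all probe sets was -0.07 here, 0.07 as deposited and -0.33 with median centring. The median of the immunoproteasome genes at 120 days was 1.00 as deposited. With median centring the other genes had medians of -0.21 at 90 days, -0.50 at 120 days and -0.32 for the difference, and Psmb3 at 90 days (-0.076), Psme3 (-0.27), Psmb1 (-0.12), Psmb4 (-0.18), Keap1 (-0.022) and Nfe2l1 (-0.059) at 120 days turned negative. Psmb3 at 90 days was also negative as deposited (-0.015) and as the mean of its probe sets (-0.032), Rad23b at 120 days was positive as the mean of its probe sets (0.10), Psmb5 at 120 days was 0.00045 with the offset at the 50th percentile, and Psme4 at 90 days was 0.034 with array weights. With the filter at the 75th percentile, where Psmb10 was the one immunoproteasome gene left, the immunoproteasome median at 90 days was 0.25 and its difference from the other genes 0.39. With 1 array left out at a time, the median of the other genes ran between -0.23 and -0.070 at 90 days and between -0.14 and 0.052 at 120 days, and the immunoproteasome median of the difference between ages between -0.32 and 0.38. In the same fits Psmb5 ran between -0.28 and 0.12 at 90 days and between -0.11 and 0.21 at 120 days, Psme4 between -0.10 and 0.046, Psmb3 between -0.22 and 0.36, Psmb10 between -0.10 and 0.61 and Psmg4 between -0.16 and 0.33 at 90 days, and Psme3 between -0.030 and 0.29 at 120 days. Apart from the shifts by scaling and by fewer genes or arrays, the cause was not tested.

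Over all probe sets, the 1948 calls at 120 days were 3500 with median centring, 2953 with the offset at the 50th percentile, 1244 without a filter, 759 with each age alone, and between 475 and 2432 with 1 array of that age left out, 475 without NTg replicate 2, 610 without NTg replicate 3, 1059 without NTg replicate 1 and 1123 without SOD1G93A replicate 3. The share of higher among calls was 48.3%, and 19% with median centring. The 36 calls at 90 days were between 12 and 131 over the alternatives. The main fit did not pair animals by replicate number. Same-numbered arrays had correlations of their deviations between -0.28 and 0.275, and differently numbered ones between -0.359 and 0.455. With 3 arrays a group these values cannot tell whether animals were paired. With the replicate block 0 proteasome genes passed at either age or for the difference, beside 17 and 1063 of all probe sets at 90 and 120 days; Tap1, Irf1, Ifi35 and Ifit3 lost their calls at 120 days (adjusted p between 0.0662 and 0.0895), and the medians did not move. Fitting each age alone gives no test of the difference between ages. The small number of mice limits what the counts of 0 can show, and the dim signal of Psmb8 and Psmb9 limits their values.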
